A study of Mus musculus with 4 samples.

Results

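The cells described here were the macrophages of 1 single-cell library of skeletal muscle, split by how much Cas9 RNA they held. The muscle came from a DMD mouse model (Duchenne muscular dystrophy, the loss of dystrophin from muscle) given LNP-CRISPR. LNP-CRISPR is a lipid nanoparticle (LNP) that carries the CRISPR gene-cutting system, and Cas9 is its cutting enzyme. The members were chosen by measured values: barcodes of the LNP bulk library in which 200 genes or more were detected, mitochondrial UMIs made up 20% or less, and there were at least 5 UMIs of C1qa, C1qb and C1qc together, at least 1 UMI of Csf1r and 0 of Flt3. A UMI is a molecular tag by which 1 captured RNA is counted once. This gave 74 macrophages among 1152 kept cells of the library and 5674 kept cells of the series (6512 barcodes). Of the 74, 45 had at least 4 Cas9 UMIs and are called Cas9-rich, 12 had none and are called Cas9-free, and 17 had 1 to 3. Because the values of C1q, Csf1r, Flt3 and Cas9 chose the cells, they are given as a description only.

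The series held 4 libraries, 1 per group: Vehicle or LNP-CRISPR, each as a bulk preparation (labelled Bulk) or after a satellite cell isolation kit (labelled Satellite cells), all of skeletal muscle of the DMD model. The allele, strain, age, muscle, dose, time after dosing and number of animals are not given in the sources used here. The same choice of cells, without the Cas9 limit, found 105 macrophages in the vehicle bulk library and 0 in either kit library. Cells of 1 library are not replicates of a treatment, so differences are described by their size, without tests. Every interval in brackets is a 95% interval for counting error alone, which leaves out the spread between cells and between animals.

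Macrophages are phagocytes. In muscle they clear debris after injury, and in dystrophic muscle they are among the most common infiltrating cells. They arise both from tissue-resident cells and from blood monocytes that mature in the tissue. Such monocytes lose monocyte genes and gain genes such as those of C1q, the recognition molecule of the classical complement pathway. Csf1r is the receptor for the growth factor that keeps macrophages alive. Lipid nanoparticles enter cells by endocytosis, commonly after binding apolipoproteins such as ApoE, and RNA that escapes the endosome reaches the cytosol.

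Cas9-rich macrophages had a median of 9 Cas9 UMIs (4 to 128) and together held 999 Cas9 UMIs, of which the 3 highest cells held 36.5%. At the limit of the choice, the 6 macrophages with 3 Cas9 UMIs and the 4 with 4 stood at 101 and 254 CPM for Cx3cr1, 589 and 549 CPM for Gda and 1798 and 2198 CPM for Hspa5, genes described below (CPM, UMIs per 1000000 nuclear-encoded UMIs without Cas9). Just outside the other limits lay 3 cells with 3 or 4 C1q UMIs and 10 cells with no Csf1r. The cell with the most Cas9 in the library, at 1573 UMIs, was not a member because it had 0 UMIs of Csf1r. The rule asked for a comparison at matched depth, so Cas9-rich and Cas9-free cells were paired 1 to 1 on total UMIs, which gave 11 pairs with medians of 24075 and 24192 UMIs and no pair further apart than 1.08-fold. The remaining Cas9-free cell had 760 UMIs and no partner, and 34 Cas9-rich cells were left over. These 34 were set against the same 11 Cas9-free cells as a side value, so the 2 comparisons share their Cas9-free cells. No macrophage barcode was shared with another library.

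**Figure D1:**
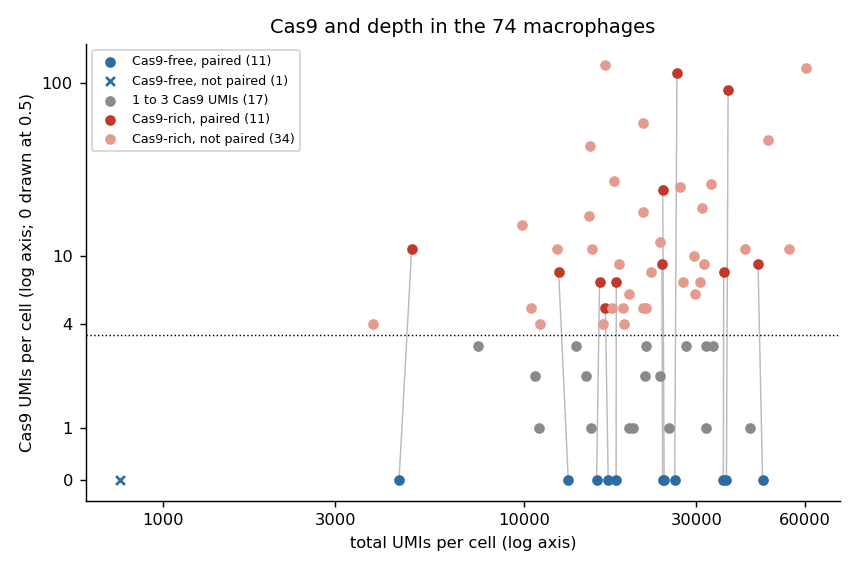
Cas9 UMIs (y axis, log) against total UMIs (x axis, log) for each of the 74 macrophages, with grey lines joining the 11 pairs and a dotted line at the limit between 3 and 4 Cas9 UMIs. The pairs lie between 4506 and 45744 total UMIs, and the Cas9-rich cells outside the pairs lie between 3821 and 60389.

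Both groups carried macrophage genes that the choice did not use. All 12 such markers were measured and summed to 24287 CPM in paired Cas9-rich and 13863 CPM in paired Cas9-free cells (1.75-fold, 1.68–1.83). Lyz2 and Ctss held 3303 and 1205 of the 5970 UMIs of these markers in paired Cas9-rich cells. Of the 12, 7 were higher, 4 at least 2-fold higher (against 4.68% of all measured genes) and 1 at least 2-fold lower (against 9.52%). Their median log2 ratio was 0.23. Ms4a7 (5.38-fold), Lyz2 (2.30-fold) and Itgam (0.37-fold) were among those past 2-fold, whereas Adgre1 (the F4/80 antigen) was at 382 and 347 CPM, and Cd68, a lysosomal membrane protein, at 639 and 647 CPM. C1q itself stood at 5557 CPM in the paired Cas9-rich cells, 6233 CPM in the other Cas9-rich cells, 2508 CPM in the paired Cas9-free cells and 5778 CPM in vehicle macrophages. The paired Cas9-free cells were the poorest in C1q of these groups. Csf1r stood at 692, 595, 447 and 548 CPM in the same order of groups.

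Across 2541 measured genes, 119 (4.68%) were at least 2-fold higher and 242 (9.52%) at least 2-fold lower in the 11 Cas9-rich cells than in their 11 Cas9-free partners, so 14.2% lay past 2-fold in either direction. A gene was measured with at least 30 UMIs over both groups and UMIs in at least 10 of the 22 cells. The median log2 ratio over all measured genes was -0.12, and 41.8% of genes were higher in Cas9-rich cells. With that median set to 1-fold, 149 were at least 2-fold higher and 172 at least 2-fold lower, which moves the share of higher genes among those past the fold from 33.0% to 46.4%. The side comparison with the 34 other Cas9-rich cells put 3.46% of the same genes at least 2-fold higher and 4.92% at least 2-fold lower. For 0 genes did the lowest Cas9-rich cell stand above the highest Cas9-free cell, or the reverse.

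**Figure D2:**
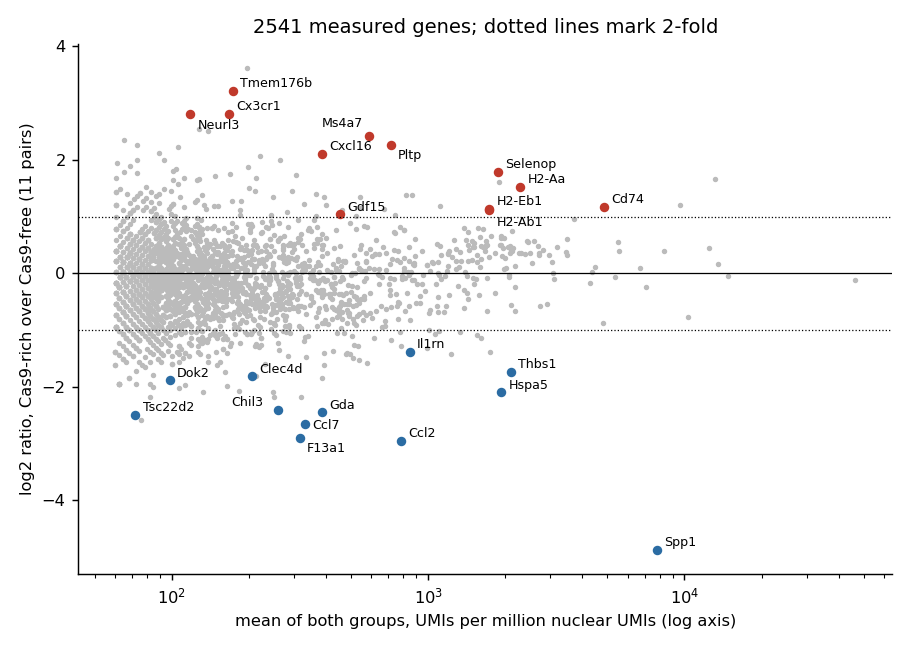
Mean level (x axis, CPM, log) against the log2 ratio of Cas9-rich over Cas9-free macrophages (y axis) for the 2541 measured genes, with the 12 highest genes in red and the 12 lowest in blue, ranked by the interval bound nearest to 1 after leaving out each group's highest cell. More genes lie below the lower dotted line (242) than above the upper one (119), and Spp1 lies furthest down.

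Among the 12 highest genes were Cx3cr1, Ms4a7, Pltp and Selenop, and among the 12 lowest Spp1, F13a1, Gda and Chil3. Cx3cr1, the receptor for fractalkine, was at 293 CPM in Cas9-rich and 39.9 CPM in Cas9-free cells (7.33-fold, 3.77–15.9), with a UMI in 10 of 11 Cas9-rich and 3 of 11 Cas9-free cells and a higher value in the Cas9-rich cell of 10 pairs. Per cell it ran from 0 over a median of 238 to 1034 CPM in Cas9-rich cells, and from 0 over a median of 0 to 340 CPM in Cas9-free cells. The groups overlapped, and 8 of 11 Cas9-free cells had no Cx3cr1 UMI, which at this depth does not show that the transcript was absent. Ms4a7, a membrane protein of mature macrophages, was at 989 against 184 CPM (5.38-fold, 3.91–7.54), with cells from 0 over 1075 to 3021 CPM and from 0 over 122 to 1248 CPM. Pltp, which transfers phospholipids between lipoproteins, was the only gene of the 12 highest that was higher in the Cas9-rich cell of all 11 pairs, at 1184 against 244 CPM (4.86-fold, 3.68–6.51). Its lowest, median and highest cells were 176, 715 and 2542 CPM when Cas9-rich and 0, 22.7 and 1085 CPM when Cas9-free.

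Selenop, a secreted selenium carrier made by tissue macrophages, was at 2901 against 839 CPM (3.46-fold, 2.96–4.05; 8 of 11 pairs). Tmem176b, a membrane protein of antigen-presenting cells, was at 313 against 31.9 CPM (9.80-fold, 4.73–23.5), and Cxcl16, a membrane-bound chemokine that also takes up oxidised lipoprotein, at 627 against 144 CPM (4.36-fold, 3.02–6.45). Neurl3, a ubiquitin ligase, was at 207 against 28.0 CPM (7.42-fold, 3.35–19.4). Outside the 12 highest, Apoe, the apolipoprotein, was at 19914 against 6302 CPM (3.16-fold, 2.98–3.35; 9 of 11 pairs), and Lyz2, the macrophage lysozyme, was at 13437 against 5843 CPM (2.30-fold, 2.16–2.45; 8 of 11 pairs). Cells differed widely in Apoe within each group, from 89.5 over 11330 to 59698 CPM in Cas9-rich and from 68.3 over 2768 to 17797 CPM in Cas9-free cells.

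The 34 other Cas9-rich cells, set against the same Cas9-free cells, gave 4.89-fold for Cx3cr1, 3.96-fold for Ms4a7, 2.29-fold for Pltp, 3.21-fold for Selenop, 5.55-fold for Tmem176b, 3.10-fold for Cxcl16, 4.29-fold for Neurl3, 2.35-fold for Apoe and 1.61-fold for Lyz2. Vehicle macrophages were at 183 CPM for Cx3cr1, 699 CPM for Ms4a7, 471 CPM for Pltp, 3405 CPM for Selenop and 13386 CPM for Apoe. For each of these 5 genes the paired Cas9-free cells had the lowest level of all the groups of macrophages compared. Treatment and library cannot be told apart in a comparison with vehicle.

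**Figure D3:**
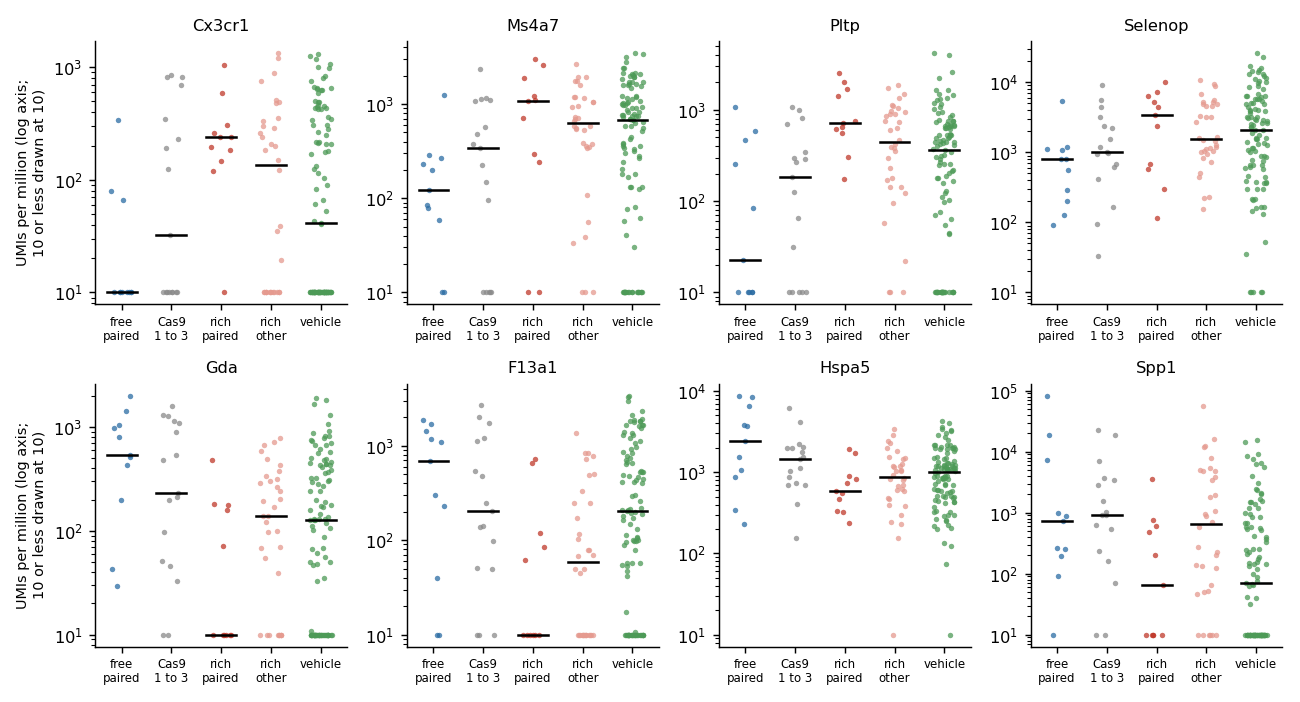
CPM per cell (y axis, log; values of 10 or less drawn at 10) of 4 genes that were higher (top) and 4 that were lower (bottom) in Cas9-rich macrophages, in 11 paired Cas9-free, 17 cells with 1 to 3 Cas9 UMIs, 11 paired Cas9-rich, 34 other Cas9-rich and 105 vehicle macrophages, with bars at the medians. In each panel the groups overlap, and in all panels but that of Spp1 the paired Cas9-free and the paired Cas9-rich cells have the 2 outermost medians (0 and 238 CPM for Cx3cr1, 533 and 0 CPM for Gda).

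Genes of MHC class II, which presents peptides to helper T cells, were also higher, and 1 Cas9-free cell held most of the UMIs of its group. All 6 measured members of 10 were higher and 5 were past 2-fold (against 4.68% of all genes), with a median log2 ratio of 1.16. H2-Aa was at 3389 against 1178 CPM (2.88-fold, 2.52–3.30), H2-Eb1 at 2384 against 1078 CPM (2.21-fold, 1.91–2.56), H2-Ab1 at 2368 against 1090 CPM (2.17-fold, 1.88–2.52), and Cd74, the chaperone of the class II molecules, at 6713 against 2975 CPM (2.26-fold, 2.07–2.46). Summed over the list, Cas9-rich cells ran from 215 over a median of 10412 to 42968 CPM, and Cas9-free cells from 87.6 over a median of 267 to 54055 CPM. The highest cell of all 22 was therefore a Cas9-free one. It held 234 of the 295 H2-Aa UMIs of its group, and without the highest cell of each group the ratio of H2-Aa was 10.98 (8.44–14.5) and that of Cd74 6.10 (5.27–7.11). The 34 other Cas9-rich cells were only 1.47-fold above the Cas9-free cells for H2-Aa and 1.21-fold for Cd74, with a list median log2 of 0.30 and 0 members past 2-fold. Pairs matched on macrophage state as well as depth turned the list to -0.79, and Cas9-rich cells from 10 UMIs turned it to -0.22.

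Gdf15, a stress-induced cytokine, was also among the 12 highest, at 610 against 296 CPM (2.06-fold, 1.55–2.77), yet 69 of the 74 Cas9-free UMIs lay in 1 cell and 83 of the 150 Cas9-rich UMIs in another.

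Among the 12 lowest genes, Gda, guanine deaminase, was lower in the Cas9-rich cell of all 11 pairs, at 118 against 651 CPM (0.18-fold, 0.12–0.27). It was present in all 11 Cas9-free cells (29.2 to 2016 CPM, median 533) and in 5 of 11 Cas9-rich cells (0 to 477 CPM, median 0). F13a1, the coagulation factor XIII A chain made by monocytes and resident-type macrophages, was at 73.2 against 559 CPM (0.13-fold, 0.075–0.21), with medians of 0 and 692 CPM. Chil3 (Ym1), a chitinase-like protein of monocytes and alternatively activated macrophages, was at 81.4 against 439 CPM (0.19-fold, 0.11–0.30), and Dok2, an adaptor that dampens receptor signalling, at 40.7 against 156 CPM (0.26-fold, 0.12–0.53). Clec4d, a C-type lectin, was at 89.5 against 320 CPM (0.28-fold, 0.17–0.45) and Tsc22d2 at 20.3 against 124 CPM (0.16-fold, 0.050–0.43).

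Spp1, osteopontin, a secreted matrix protein typical of lipid-associated macrophages, had the lowest ratio of the 12 at 513 against 15089 CPM (0.034-fold, 0.028–0.041). One Cas9-free cell held 2899 of the 3778 Spp1 UMIs of its group, and without the highest cell of each group the ratio was 0.041 (0.029–0.057). The lowest, median and highest cells were 0, 64.7 and 3543 CPM when Cas9-rich and 0, 733 and 82933 CPM when Cas9-free. Outside the pairs Spp1 was less low: the 34 other Cas9-rich cells stood at 6605 CPM, 0.44-fold of the Cas9-free cells, and vehicle macrophages at 1221 CPM. The lipid-associated list as a whole was not low, with 12 of 16 members measured, 6 higher and a median log2 of 0.14. In it, 1 member, Apoe, was at least 2-fold higher (against 4.68% of all genes) and 4 at least 2-fold lower (against 9.52%). With the 34 other Cas9-rich cells, 8 of the 12 were higher and the median was 0.41. Thbs1, thrombospondin 1, was at 972 against 3239 CPM (0.30-fold, 0.26–0.35), Il1rn, the decoy ligand of the interleukin 1 receptor, at 468 against 1226 CPM (0.38-fold, 0.31–0.47), and Fn1, fibronectin, at 997 against 2117 CPM (0.47-fold).

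The monocyte attractants Ccl2 and Ccl7, which lie side by side in one chemokine cluster, were both low. Ccl2 was at 179 against 1394 CPM (0.13-fold, 0.092–0.18) and Ccl7 at 89.5 against 571 CPM (0.16-fold, 0.095–0.25), although Ccl2 was higher in the Cas9-rich cell of 4 pairs and lower in 5. The 34 other Cas9-rich cells gave 0.30-fold for Gda, 0.35-fold for F13a1, 0.18-fold for Chil3, 0.44-fold for Dok2, 0.20-fold for Ccl2, 0.26-fold for Ccl7, 0.65-fold for Thbs1 and 0.63-fold for Tsc22d2. In the monocyte-type list, 7 of 13 members were measured, 2 were higher and 4 at least 2-fold lower (median log2 -1.08), against 9.52% of all genes. Ccr2, the receptor for Ccl2 and a mark of incoming monocytes, was at 305 against 535 CPM (0.57-fold). The resident-type list, with 5 of 16 members measured, had 3 members at least 2-fold lower, among them F13a1, Mrc1 (the mannose receptor, 0.41-fold) and Pf4 (platelet factor 4, 0.33-fold), beside Selenop at 3.46-fold higher. Its median log2 of -1.27 became 0.18 with the 34 other Cas9-rich cells, in which Pf4 was 1.13-fold higher. Vehicle macrophages stood above both paired groups for Mrc1 (992 CPM) and Pf4 (1158 CPM). The monocyte-type median turned to 0.052 with pairs matched on state, which uses this list, and was -0.39 with Cas9-rich cells from 10 UMIs. The resident-type median turned to 0.62 with Cas9-rich cells from 10 UMIs.

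On GRCm38 (GENCODE M21) the protein-coding genes just described lie on chromosome 9 at 119901616 to 120069879 (Cx3cr1), chromosome 19 at 11321039 to 11336146 (Ms4a7) and 21391307 to 21473445 (Gda), chromosome 2 at 164839518 to 164857711 (Pltp), chromosome 15 at 3268547 to 3280508 (Selenop), chromosome 13 at 36867178 to 37050244 (F13a1), chromosome 3 at 106147554 to 106167564 (Chil3), chromosome 5 at 104435118 to 104441050 (Spp1) and chromosome 11 at 82035571 to 82037453 (Ccl2).

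The unfolded protein response had 0 measured members higher in the paired Cas9-rich cells. It is the programme that adds chaperones and folding enzymes when unfolded proteins build up in the endoplasmic reticulum. Of 20 listed genes 13 were measured, 8 were at least 2-fold lower (against 9.52% of all genes), and the median log2 ratio was -1.12 (all genes -0.12). Hspa5 (BiP), the main chaperone of this compartment, was at 732 against 3127 CPM (0.23-fold, 0.20–0.28) and lower in the Cas9-rich cell of 9 pairs. Its lowest, median and highest cells were 239, 583 and 1907 CPM when Cas9-rich and 231, 2401 and 8791 CPM when Cas9-free, so the lowest cells were alike and the groups parted above them. Manf, a secreted protein released under this stress, was at 0.23-fold (0.13–0.40), Pdia4, a disulphide isomerase, at 0.32-fold, Edem1, which sends misfolded glycoproteins to degradation, at 0.33-fold, and Hsp90b1 (GRP94), a chaperone, at 0.49-fold (0.39–0.61). Xbp1, whose spliced form drives part of the programme, was at 81.4 against 180 CPM (0.45-fold). Atf4, the transcription factor of the branch that acts through translation, was at 203 against 300 CPM (0.68-fold), and Ppp1r15a, the phosphatase subunit that ends that branch, at 155 against 156 CPM.

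Summed over the list, the paired Cas9-rich cells ran from 1672 over a median of 2413 to 7550 CPM, and the paired Cas9-free cells from 2479 over 7874 to 14598 CPM. The Cas9-free cell was the higher of 9 pairs. The 34 other Cas9-rich cells had a median of 4144 CPM (1487 to 10580), and in them 11 of the 13 genes were lower than in Cas9-free cells, 2 at least 2-fold (against 4.92% of all genes), with a median log2 of -0.63. Vehicle macrophages summed to 5547 CPM, between the Cas9-free (7776 CPM) and the Cas9-rich cells (3222 CPM paired, 4807 CPM others). With pairs matched also on macrophage state (the summed monocyte-type, resident-type and lipid-associated genes), the median log2 of the list was -0.15.

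Promoters of this list are shown because 5 of them hold a sequence that is rare among promoters. The endoplasmic reticulum stress element is CCAAT, any 9 bases, then CCACG, searched on both strands; it was added after the list's values had been seen. It was found in 5 of the 12 promoters of the measured list genes that the RefSeq table (GRCm38.p6) held, against 37 of all 32851 promoters in that table (0.113%) and 7 of 2620 promoters of measured genes (0.267%), each taken as the 250 bases before the start. The 5 genes were Hspa5, Hsp90b1, Calr, Dnajc3 and Pdia6. Hspa5 was also the only gene of the 12 lowest with the element. A match describes these letters and says nothing of binding. Because the list was chosen as genes of the unfolded protein response, the share of 5 in 12 promoters describes the list and not the cells. Of the 12 highest genes 9 and of the 12 lowest 7 matched that table. In the 3 promoters below, 5′ to 3′ along the gene, capitals mark the CCAAT and CCACG ends, or their reverse complement, of each match. The first is chr2:34771840-34772089 on the plus strand, with its match starting at position -65 from the start, and the next is chr10:86705445-86705694 on the minus strand, with 2 matches. The last, of Pdia4, chr6:47813513-47813762 on the minus strand, is one of the 7 without a match.
Hspa5: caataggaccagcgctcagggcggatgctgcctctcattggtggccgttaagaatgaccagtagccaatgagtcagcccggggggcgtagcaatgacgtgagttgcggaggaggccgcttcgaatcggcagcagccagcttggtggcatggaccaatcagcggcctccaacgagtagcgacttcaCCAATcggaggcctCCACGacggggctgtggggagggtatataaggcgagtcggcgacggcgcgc
Hsp90b1: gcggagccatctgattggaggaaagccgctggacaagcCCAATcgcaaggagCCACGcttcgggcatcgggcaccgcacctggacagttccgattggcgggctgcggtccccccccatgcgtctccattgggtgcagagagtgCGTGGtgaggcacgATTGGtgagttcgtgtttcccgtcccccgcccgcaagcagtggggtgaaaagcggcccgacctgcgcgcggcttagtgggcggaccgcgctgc
Pdia4: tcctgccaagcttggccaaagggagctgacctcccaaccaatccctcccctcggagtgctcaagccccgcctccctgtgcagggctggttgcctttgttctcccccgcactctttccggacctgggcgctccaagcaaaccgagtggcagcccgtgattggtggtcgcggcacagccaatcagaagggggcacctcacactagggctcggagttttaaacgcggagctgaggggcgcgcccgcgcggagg

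Other motifs were searched in the same windows on both strands. The E-box CACGTG was in 1 of 15 promoters of the 12 highest genes and 0 of 11 promoters of the 12 lowest. Its share was 6.02% of all promoters and 9.85% of those of measured genes. The AP-1 site TGACTCA was in 0 of 15 and 2 of 11 (4.46% of all, 3.47% of measured), the latter those of Hspa5 and Il1rn. An NF-kB site, GGG, any 2 bases, then TTTCC, was in 2 of 15 and 1 of 11 (1.41% of all, 2.14% of measured). It was also in 8 of 20 promoters, of 7 genes, of the NF-kB list described below. That list was chosen as NF-kB and inflammation genes, so its share describes the list and not the cells. The interferon response element, GAAA, any 2 bases, then GAAA, was in 2 of 15, both of Selenop, and 1 of 11 (2.98% of all, 3.17% of measured).

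Glycolysis and hypoxia genes were low in the same cells. Of 20 listed genes 16 were measured, 0 were higher, 7 were at least 2-fold lower (against 9.52% of all genes), and the median log2 ratio was -0.98. The enzymes Pgk1 (199 against 455 CPM, 0.44-fold, 0.31–0.62) and Pgam1 (382 against 843 CPM, 0.45-fold, 0.35–0.58) were each lower in the Cas9-rich cell of 10 pairs. Eno1, enolase, was at 0.41-fold, Ldha, which makes lactate, at 0.56-fold, Pkm, pyruvate kinase, at 0.66-fold, and Gapdh, the most abundant enzyme of the list, at 932 against 1246 CPM (0.75-fold). Mif, a cytokine that hypoxia induces, was at 93.6 against 403 CPM (0.23-fold, 0.14–0.37), and the hypoxia genes Ndrg1 and Ero1l at 0.21-fold and 0.24-fold. Summed, Cas9-rich cells ran from 1343 over 2323 to 6632 CPM and Cas9-free cells from 2037 over 5605 to 10780 CPM, the Cas9-free cell being higher in 10 of 11 pairs. The 34 other Cas9-rich cells had 0 of the 16 genes higher, 7 at least 2-fold lower (against 4.92% of all genes) and a median log2 of -0.90. The paired median was -0.38 with pairs matched on state and -0.46 with Cas9-rich cells from 10 UMIs. Nuclear genes of oxidative phosphorylation, the other main source of ATP, had 13 of 28 higher, 1 at least 2-fold lower and a median log2 of -0.07.

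**Figure D4:**
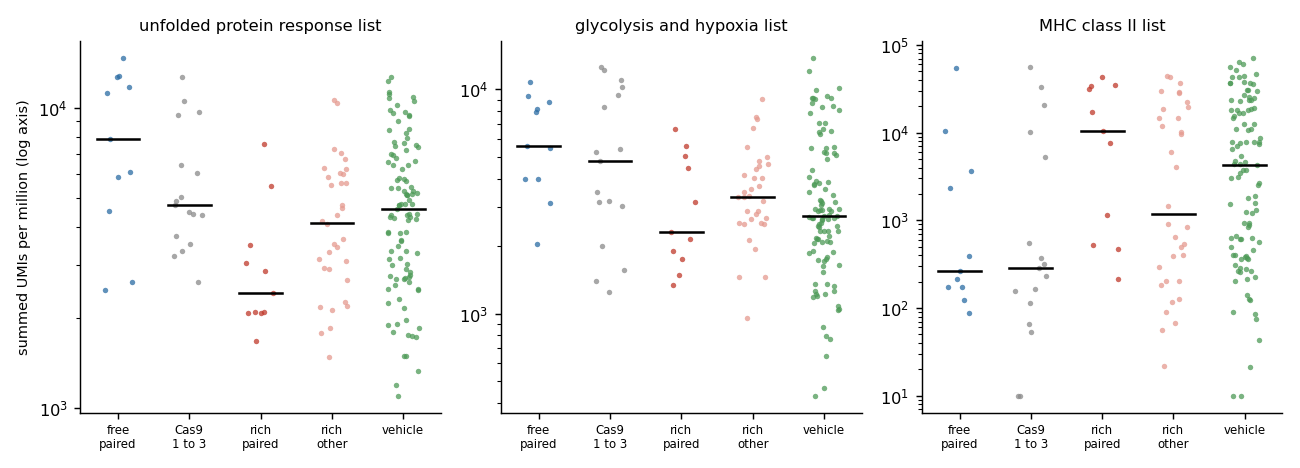
Summed CPM per cell (y axis, log) of the unfolded protein response, glycolysis and hypoxia, and MHC class II lists in the same 5 groups of macrophages, with bars at the medians. The paired Cas9-rich cells have the lowest median in the first and the middle panel (2413 and 2323 CPM), and MHC class II spreads from 215 to 42968 CPM over the paired Cas9-rich and from 87.6 to 54055 CPM over the paired Cas9-free cells.

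The list of NF-kB targets and acute inflammation had 21 of 32 members measured, 17 higher, 6 at least 2-fold higher (against 4.68% of all genes) and 1, Ccl2, at least 2-fold lower, with a median log2 of 0.76. Nfkbia, the inhibitor that NF-kB itself induces, was at 1184 against 451 CPM (2.62-fold, 2.10–3.29; 9 of 11 pairs), and Ptgs2, cyclooxygenase 2, at 777 against 304 CPM (2.56-fold, 1.95–3.39). Ccl3, a chemokine for monocytes and T cells, was at 366 against 28.0 CPM (13.1-fold, 6.10–33.5), with 58 of its 90 UMIs in 1 Cas9-rich cell. Cxcl1, a neutrophil attractant, was at 236 against 39.9 CPM, with 51 of its 58 UMIs in 1 cell, and its relative Cxcl2, the most abundant gene of the list, was level at 5256 and 5496 CPM. With the 34 other Cas9-rich cells the list median was -0.0038, 3 members were at least 2-fold higher (against 3.46% of all genes), Nfkbia was 1.70-fold higher, Ptgs2 1.02-fold, Ccl3 9.79-fold, and Cxcl2 0.52-fold. Without depth matching the list median was 0.23, and without each gene's highest cell 0.37.

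Several cytokines of interest in LNP treatment were too sparse to compare. Il10 gave 6 UMIs in 2 Cas9-rich cells and 1 UMI in 1 Cas9-free cell, Tnf 16 UMIs in 2 cells and 7 in 4, and Il1b 30 UMIs in 2 cells and 18 in 6. Cxcl10, an interferon-induced chemokine, gave 16 UMIs in 6 Cas9-rich cells and 46 in 3 Cas9-free cells, 44 of the latter in 1 cell. Isg15, a ubiquitin-like protein induced by interferon, gave 7 and 13 UMIs. The interferon list had 11 of 41 members measured, 7 higher, 0 at least 2-fold higher (against 4.68% of all genes) and 1 at least 2-fold lower (against 9.52%; median log2 0.17), and many of its genes were not detectable at this depth in enough cells. The sensors of delivered RNA were near the limit of detection, with 16 and 11 UMIs for Tlr7, the endosomal sensor of single-stranded RNA, and 14 and 12 for Ifih1 (MDA5), a cytosolic sensor. Only 2 of the 23 genes of the list of RNA sensors and their adaptors were measured. Unc93b1, which carries the endosomal Toll-like receptors to their compartment, was at 635 against 292 CPM (2.18-fold, 1.64–2.92; 10 of 11 pairs; 1.70-fold in the other Cas9-rich cells). Irf5, the other measured gene, was level at 138 against 140 CPM (0.99-fold, 0.60–1.63). The p53 list, of genes that answer DNA damage, had 6 of 24 measured, 4 higher and a median log2 of 0.41, and in the 34 other Cas9-rich cells 2 of 6 higher and a median of -0.14. The 2 lower genes of the pairs were Cdkn1a, which halts the cell cycle, at 484 against 763 CPM (0.63-fold, 0.50–0.80) and Mdm2, the ubiquitin ligase for p53, at 138 against 308 CPM (0.45-fold, 0.29–0.68).

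Of the phagocytic and Fc receptors, 13 of 20 were measured, 8 were higher, 4 at least 2-fold higher (against 4.68% of all genes) and 2 at least 2-fold lower (against 9.52%; median log2 0.51). Fcgr4, an activating receptor for IgG, was at 159 against 43.9 CPM (3.61-fold, 1.81–7.82; 2.91-fold in the other Cas9-rich cells), Fcgr3 at 700 against 347 CPM (2.01-fold), Mertk, a receptor for dying cells, at 85.4 against 35.9 CPM (2.38-fold, 1.04–5.89), and Cd300a, an inhibitory lipid receptor, at 264 against 108 CPM (2.45-fold; 10 of 11 pairs). Itgam (CD11b), the complement receptor subunit, went the other way, at 268 against 723 CPM (0.37-fold, 0.28–0.49; lower in 10 of 11 pairs). Scavenger and lectin receptors had 8 of 16 measured, 2 higher, 3 at least 2-fold lower (against 9.52% of all genes; median log2 -0.62): Msr1, scavenger receptor A, was at 167 against 603 CPM (0.28-fold, 0.19–0.39), whereas Cd36, a receptor for oxidised lipid, was at 415 against 304 CPM (1.37-fold). With pairs matched on state the median of the phagocytic list was 0.052 and that of the scavenger list -0.013, and with Cas9-rich cells from 10 UMIs the scavenger list turned to 0.15.

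The endocytosis list had 24 of 27 genes measured, 6 higher, 0 at least 2-fold higher, 2 at least 2-fold lower and a median log2 of -0.35. Its share of lower genes was close to the 9.52% of all genes. Cltc, the clathrin heavy chain, was at 236 against 611 CPM (0.39-fold, 0.28–0.53), and Cdc42, which shapes the actin of macropinocytosis, at 635 against 907 CPM (0.70-fold, 0.57–0.86). In the 34 other Cas9-rich cells the list median was -0.05. Lipoprotein receptors had 5 of 12 measured, 0 higher and 1 at least 2-fold lower (against 9.52% of all genes; median log2 -0.44). The lysosome list had 29 of 31 measured, 18 higher, 1 at least 2-fold higher (against 4.68% of all genes) and 2 at least 2-fold lower (against 9.52%; median log2 0.18). Lipid efflux and storage had 8 of 16 measured, 5 higher, 2 at least 2-fold higher (against 4.68% of all genes) and 2 at least 2-fold lower (against 9.52%). Besides Pltp and Apoe, it held Abcg1, a cholesterol exporter, at 155 against 91.9 CPM (1.68-fold, 0.98–2.96; 9 of 11 pairs) and Plin2, the coat of lipid droplets, at 688 against 1438 CPM (0.48-fold). Only 1 of 21 genes of cholesterol synthesis was measured.

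**Figure D5:**
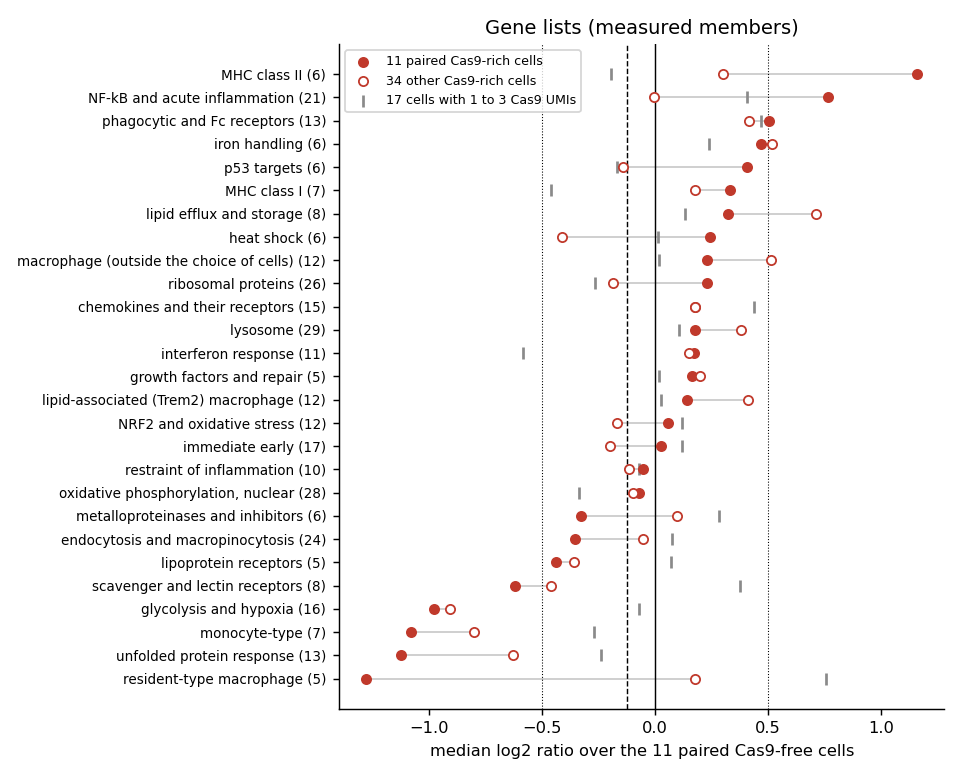
Median log2 ratio over the 11 paired Cas9-free macrophages (x axis) for each gene list with at least 5 measured members (number in brackets), for the 11 paired Cas9-rich cells (filled), the 34 other Cas9-rich cells (open) and the 17 cells with 1 to 3 Cas9 UMIs (grey ticks), with the median of all genes as a dashed line and 0.5 either way as dotted lines. Glycolysis and hypoxia (-0.98 and -0.90), monocyte-type and unfolded protein response lie below -0.5 for both sets of Cas9-rich cells, whereas resident-type, NF-kB and MHC class II lists part.

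Levels across all Cas9 classes, not matched for depth, showed where the 17 cells with 1 to 3 Cas9 UMIs stood. The unfolded protein response list summed to 7776 CPM in paired Cas9-free cells, 5453 CPM with 1 to 3 Cas9 UMIs, 4239 CPM in the 23 cells with 4 to 9 and 4576 CPM in the 22 cells with 10 or more. Glycolysis and hypoxia summed to 6650, 5936, 3686 and 4084 CPM in the same order. In both lists the cells with 10 or more Cas9 UMIs stood above those with 4 to 9. MHC class II summed to 6662, 5134, 14582 and 6416 CPM, so its high level lay in the cells with 4 to 9 Cas9 UMIs. Cx3cr1 was at 226 CPM with 1 to 3 UMIs, 197 CPM with 4 to 9 and 238 CPM with 10 or more, all above the 39.9 CPM of Cas9-free cells. Gda (506 CPM) and F13a1 (526 CPM) with 1 to 3 UMIs were near the Cas9-free level, and Ccl2 lay between at 989 CPM. Il1b, too sparse to compare in the pairs, was at 1373 CPM with 1 to 3 UMIs, 361 CPM with 4 to 9 and 47.2 CPM with 10 or more. In the pairs, 23 of its 30 Cas9-rich UMIs lay in 1 cell. How many cells held its UMIs in each class is not given here, so no ranking of the classes is drawn.

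Cells outside the macrophage choice were split by Cas9 in the same way. The first set had at least 1 UMI of Csf1r, 0 of Flt3 and under 5 of C1q, and is called C1q-low. Its 36 pairs were not of one cell type: the stromal list summed to 28250 CPM in its Cas9-rich cells (304 to 146135 per cell, median 987) and 682 CPM in its Cas9-free cells (0 to 2254, median 732), with Col1a1, a collagen chain, at 8539 against 150 CPM. Neutrophil markers summed to 1076 and 5609 CPM and muscle fibre markers to 161 and 620 CPM. The part of this RNA in the values of the set was not tested. In it, 8.14% of 4642 measured genes were at least 2-fold higher and 6.38% at least 2-fold lower. Some genes went the same way as in the macrophage pairs. F13a1 was at 0.29-fold (0.23–0.35), Gda at 0.47-fold (0.40–0.55), Chil3 at 0.39-fold (0.34–0.45), Hspa5 at 0.60-fold (0.54–0.66), Pltp at 3.43-fold (2.32–5.21) and Selenop at 2.09-fold (1.53–2.88). Other genes went the opposite way. Ccl2 was at 3.29-fold (2.98–3.65), Ccl7 at 4.13-fold (3.35–5.14), Il1rn at 2.47-fold (2.05–2.98), Spp1 at 1.24-fold (1.13–1.36) and Tmem176b at 0.59-fold (0.36–0.96). The unfolded protein response had 2 of 16 genes higher (median log2 -0.67), and MHC class II 0 of 6 higher (median -0.80). Glycolysis and hypoxia had 3 of 19 genes higher (median -0.51). The interferon list had 9 of 26 at least 2-fold higher (against 8.14% of all genes) and 0 at least 2-fold lower (median 0.57).

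In stromal cells (Pdgfra with collagen or decorin UMIs, no C1q or Csf1r), 32 pairs had 2.84% of 6301 genes at least 2-fold higher and 3.44% at least 2-fold lower. The unfolded protein response there had 15 of 17 genes higher, 1 at least 2-fold higher (median log2 0.32), and Hspa5 was 1.34-fold higher (1.25–1.45). Glycolysis and hypoxia had 10 of 16 higher (median 0.06). The interferon list had 12 of 29 at least 2-fold higher and 2 at least 2-fold lower (median 0.82). These sets differ from the macrophages in depth and number of pairs, and the differences between sets were not tested.

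RNA of other cell types was low in both groups of macrophages. The stromal list (14 genes) summed to 557 CPM in Cas9-rich (322 to 1192 per cell) and 735 CPM in Cas9-free cells (460 to 1600 per cell), with 2 and 3 of its genes at 0. The neutrophil list summed to 146 and 136 CPM, with Ngp, Camp and Ly6g at 0 in both groups. T or NK markers came to 0 and 1 UMIs, B cell markers to 2 and 1, endothelial markers to 2 and 1, and mast cell markers to 0 in both groups. Dendritic markers summed to 146 and 75.9 CPM, with Xcr1, Cd209a and Ccr7 at 0 in both. Naaa, the only measured member, held 34 of the 36 and 17 of the 19 UMIs (2.04-fold, 1.11–3.89). Of those 34 UMIs, 18 lay in 1 Cas9-rich cell. Muscle fibre markers differed most, at 423 CPM in Cas9-rich (0 to 1744 per cell, median 129) and 47.9 CPM in Cas9-free cells (0 to 267, median 57.2), and pericyte markers were at 85.4 and 19.97 CPM. The mitochondrial share had medians of 4.71% and 3.90%. The part of fibre RNA, mitochondrial share and C1q level in the differences above was not tested.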

How the data were processed

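Single cells of mouse skeletal muscle had been made into 10x Chromium 3' v3.1 libraries, per the labels' protocols. The authors deposited raw UMI counts, 1 value for each gene in each barcode of a called cell. Cell Ranger 7.0.1 and mm10 are named per the submitters' processing notes, whereas the file headers name cellranger 5.0.1. Cas9 is the last feature of each matrix. The libraries held 25921795 to 40666916 UMIs, LNP bulk the fewest. Members and gene lists were chosen with earlier results of these data known.

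Cas9-rich and Cas9-free macrophages were paired by optimal assignment on log10 total UMIs (caliper 0.15; scipy 1.17.1, numpy 2.4.6, Python 3.11.15). Counts were summed per group and divided by nuclear-encoded UMIs without Cas9 (CPM). Ratios have exact conditional binomial 95% intervals. Log2 ratios used 0.5 UMI as pseudocount, a gene lay past the fold at 2, and a list was called at a median log2 of 0.5 or more either way. No test was run. The ratio step was tested on simulated counts. Genes named were the 12 highest and 12 lowest by the interval bound nearest 1 without each group's highest cell, members of 32 lists (the 3 most abundant, the highest and the lowest, not all printed), the choice genes and a set of prior interest; other members of lists that are named were chosen after their values were seen. C1q-low and stromal cells were chosen by UMI limits. Stromal cells had at least 1 UMI of Pdgfra and at least 5 of Col1a1, Col3a1 and Dcn together. The 14 marker lists, 1 of them of C1q and Csf1r, were summed as a description. Scrublet (scanpy 1.11.5) called 3 of 1152 cells (0.260%) and 0 macrophages, a rate at which it has not worked, so doublets are treated as still present. Near-identical genes, such as those of MHC class II, can share reads. Ddit3, Aldoa and Clec7a were not among the features used. Some single genes of these lists are not reported here.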

Additional observations from a re-analysis of the deposited data

How the results depend on the processing

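No paired analysis was possible because each group has 1 library, and no library could be left out for the same reason. Over 22 other settings (3 chosen after seeing the data: 3 Cas9-rich cells per Cas9-free cell, the pair of the Cas9-free cell richest in MHC class II left out, and genes past 2-fold left out of the total), 65 named genes past 2-fold gave 1430 values, of which 1170 kept direction and side of the fold, 232 came inside it and 28 turned. Spp1, Ccl2, F13a1, Gda, Chil3, Hspa5, Dok2, Ms4a7, Cx3cr1, Ccl3 and Fcgr4 stayed past it throughout. Not all settings could move a value. A caliper of 0.05, matching on UMIs other than Cas9 and leaving out called doublets gave the same 119 and 242 genes. The settings at 100 UMIs or more and with no filter changed only which genes were counted, not their ratios. Values from these settings repeat the main ratios and are part of the 1170. The counts of higher and lower genes were 414 and 261 of 5040 without matching, 36 and 40 after thinning to 2000 UMIs, 35 and 64 at 100 UMIs or more, 2445 and 2139 with no filter, 15 and 37 in the 5 shallower and 73 and 126 in the 6 deeper pairs, and 263 and 230 with 3 Cas9-rich cells per Cas9-free cell. The share of higher genes among those past 2-fold, 33.0% in the comparison above, was 61.3% without matching, 47.4% after thinning, 50.3% when matched on state, 48.5% when matched on stromal markers, 43.1% with Cas9-rich from 10 UMIs, and 53.3% both with no filter and with 3 Cas9-rich cells per Cas9-free cell. Lower genes were 86 when matched on state, 141 when matched on stromal markers and 157 with Cas9-rich from 10 UMIs.

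With pairs matched on state, which uses the monocyte-type, resident-type and lipid-associated lists, the list medians were -0.15 for the unfolded protein response, -0.38 for glycolysis and hypoxia, 0.052 for monocyte-type, -0.28 for resident-type, -0.79 for MHC class II, 0.38 for NF-kB, 0.052 for phagocytic and Fc receptors and -0.013 for scavenger receptors, and Cd74 (-0.71), H2-Aa (-0.86), H2-Ab1 (-1.22), H2-DMb1 (-0.37), H2-Eb1 (-1.16), Icam1 (-0.028), Neurl3 (-0.15), Pdia6 (0.068) and Thbs1 (0.46) turned. With Cas9-rich from 10 UMIs, medians were -0.46 for glycolysis and hypoxia, -0.39 for monocyte-type, 0.62 for resident-type, -0.22 for MHC class II, 0.28 for NF-kB, 0.41 for phagocytic and 0.15 for scavenger receptors, and Cd74 (-0.51), H2-Aa (-0.025), H2-Ab1 (-0.41), H2-Eb1 (-0.56), Icam1 (-0.22), Pdia4 (0.072) and Pf4 (0.62) turned. Matched on stromal markers, MHC class II was at 0.040, NF-kB 0.23, phagocytic 0.37 and resident-type 0.18, with Cxcl3 (-1.94), H2-Aa (-0.058), H2-Ab1 (-0.18), H2-Eb1 (-0.23) and Pf4 (0.18) turned. Without the cells richest in stromal markers, MHC class II was at 0.497, NF-kB 0.33 and phagocytic receptors 0.49.

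Without matching, NF-kB was at 0.23, phagocytic 0.44 and resident-type -0.090; with 3 Cas9-rich cells per Cas9-free cell, 0.36, 0.43 and -0.076, and scavenger receptors -0.46. Without each gene's highest cell NF-kB was at 0.37 and scavenger receptors at -0.43. Thinned cells gave 0.30 for phagocytic and -0.054 for scavenger receptors, with Icam1 (-0.15) and Pgk1 (0.0047) turned. NF-kB was at 0.26 in shallower pairs, with Icam1 (-0.14) and Xbp1 (0.0076) turned, and at 0.40 in deeper pairs, with scavenger receptors at -0.41 and Bnip3 (0.21), Cxcl1 (-0.41) and Gdf15 (-0.42) turned. Phagocytic receptors were at 0.499 with C1q at least 20 UMIs, 0.45 without the pair richest in MHC class II and 0.49 with genes past 2-fold out of the total, and scavenger receptors at -0.49 with the median ratio set to 1. The cause of these shifts was not tested, save that fewer genes or cells enter the thinned, 100-UMI, shallower and deeper settings. With 11 pairs and the limits of 30 UMIs and 10 cells, the text covers 2541 of 32286 features.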

Other observations

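Iron handling had 6 of 14 genes measured, 4 higher and a median log2 of 0.47, with Ftl1, the ferritin light chain, at 9450 against 7221 CPM (1.31-fold, 9 of 11 pairs) and Fth1, the heavy chain, at 14605 against 15041 CPM. MHC class I had 4 of 7 measured genes higher, with H2-D1 higher in 10 of 11 pairs (1.45-fold, 1.25–1.69). Ribosomal proteins had 22 of 26 higher (median log2 0.23), whereas 6 of 26 were higher in the 34 other Cas9-rich cells (median -0.18). Metalloproteinases and their inhibitors went both ways, with 6 of 15 measured, 3 higher and a median log2 of -0.33. Of these, 2 were at least 2-fold higher (against 4.68% of all genes) and 2 at least 2-fold lower (against 9.52%). Timp2, an inhibitor of metalloproteinases, was at 565 against 220 CPM (2.57-fold, 1.87–3.58) and 2.47-fold in the other Cas9-rich cells, and Mmp14, which it binds, at 138 against 47.9 CPM (2.89-fold, 1.46–6.12). Adam8 (216 against 463 CPM, 0.47-fold, 0.33–0.65) and Mmp19 (468 against 891 CPM, 0.53-fold, 0.42–0.66) were lower. Il4ra, the interleukin 4 receptor chain, was at 309 against 112 CPM (2.76-fold, 1.77–4.43). Cell cycle genes were scarce, with 3 of 25 measured and 0 higher.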
